A study of Mus musculus with 8 samples.

Results

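The genes described here make cholesterol in the liver, sense it and move it. They are 29 named genes, each taken from the probe set that the array's annotation gave that single symbol, with the highest mean over all 8 arrays where several did. Of the 29, 26 were measured among 22180 genes in all: 4 genes that control sterol sensing, 17 enzymes of synthesis and 5 genes of transport. Idi1 lay in a probe set with 2 symbols and was left out by this rule, and Acat2 and Soat2 were not analysed here. All 26 passed the filter on low values, a mean of at least 2.72 log2 over the arrays.

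The livers came from wild-type C57BL/6 mice, and both groups of 4 samples carry the description non-alcoholic fatty liver disease. The rilpivirine group received this non-nucleoside inhibitor of HIV reverse transcriptase by mouth each day, at a dose given only as clinically relevant, and the other group is labelled control. The labels name normal chow and a diet of 60% fat over 3 months without tying a diet to a sample, and give no vehicle, sex, age, fasting state or time of collection. They do not say that each sample was a separate mouse, so the spread between replicates may be technical. Each sample was measured on its own whole-transcript array, as RMA-normalized log2 values.

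Hepatocyte markers were high on every array: Alb, the gene of albumin, measured 13.22 to 13.37 log2 and Ttr 12.66 to 12.84. Array medians lay between 3.33 and 3.45 log2. The array of rilpivirine replicate 2 stood apart, with a mean correlation of 0.965 with the other arrays against 0.976 to 0.981, and with the highest level of 81 probe sets of small nucleolar and Cajal body RNAs, 0.49 log2 above their mean. In bulk liver, fewer cells of a type and less RNA per cell cannot be told apart.

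Cholesterol is built from acetyl-CoA through mevalonate, isoprenoids, squalene and lanosterol. Its control is a feedback loop at the endoplasmic reticulum: when membrane sterol falls, SCAP escorts the precursor of the transcription factor SREBP-2, the product of Srebf2, to the Golgi, where proteases release its active fragment, and when sterol is plentiful the INSIG proteins hold SCAP back. The active factor raises transcription of nearly all enzymes of the pathway, and in liver this output follows feeding, insulin and dietary sterol. The ABC transporters counter it by exporting sterol into bile or onto lipoproteins.

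Promoters are shown because the enzymes moved together from array to array, as described further on. RefSeq start sites (GRCm38.p6) with 250 bases before and 50 from the start on were listed for 22 of the 26 genes; Fdps, Fdft1, Sqle and Stard4 are named only. The windows printed, chosen after the values were seen, are those of the 4 enzymes with a single listed start that followed the other enzymes most closely, of Hmgcs1, and of the exporter Abca1, which did not follow them. Sequences run 5′ to 3′ on the gene's strand, and capitals mark the box CCAAT on either strand (ATTGG when reversed) and, in Hmgcs1, a match to the sterol response element form TCACNCCAC.
Hsd17b7, chr1:169969156-169969455, minus strand: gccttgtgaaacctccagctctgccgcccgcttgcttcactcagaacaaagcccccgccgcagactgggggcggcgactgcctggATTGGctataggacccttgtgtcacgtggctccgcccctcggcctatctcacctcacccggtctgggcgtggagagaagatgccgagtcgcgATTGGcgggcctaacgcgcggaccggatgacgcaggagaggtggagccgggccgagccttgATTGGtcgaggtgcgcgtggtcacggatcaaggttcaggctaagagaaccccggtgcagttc
Nsdhl, chrX:72918271-72918570, plus strand: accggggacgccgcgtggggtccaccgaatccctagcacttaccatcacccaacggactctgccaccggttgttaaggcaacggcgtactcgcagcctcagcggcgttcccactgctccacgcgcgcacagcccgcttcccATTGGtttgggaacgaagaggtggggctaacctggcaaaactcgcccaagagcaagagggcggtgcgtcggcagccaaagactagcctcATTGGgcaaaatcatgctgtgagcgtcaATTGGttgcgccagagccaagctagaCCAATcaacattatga
Cyp51, chr5:4104648-4104947, minus strand: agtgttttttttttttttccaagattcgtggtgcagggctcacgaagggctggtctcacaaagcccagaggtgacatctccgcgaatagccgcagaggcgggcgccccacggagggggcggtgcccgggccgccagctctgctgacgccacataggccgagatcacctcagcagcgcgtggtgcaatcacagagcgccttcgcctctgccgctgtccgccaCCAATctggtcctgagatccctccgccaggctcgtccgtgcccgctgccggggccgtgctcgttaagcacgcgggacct
Lss, chr10:76531355-76531654, plus strand: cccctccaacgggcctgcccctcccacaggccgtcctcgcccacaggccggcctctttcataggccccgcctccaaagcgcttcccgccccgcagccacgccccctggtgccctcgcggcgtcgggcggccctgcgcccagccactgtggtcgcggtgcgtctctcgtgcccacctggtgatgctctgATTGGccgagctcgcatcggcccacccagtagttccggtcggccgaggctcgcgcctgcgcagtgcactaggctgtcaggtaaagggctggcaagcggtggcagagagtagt
Hmgcs1, chr13:119690101-119690400, plus strand: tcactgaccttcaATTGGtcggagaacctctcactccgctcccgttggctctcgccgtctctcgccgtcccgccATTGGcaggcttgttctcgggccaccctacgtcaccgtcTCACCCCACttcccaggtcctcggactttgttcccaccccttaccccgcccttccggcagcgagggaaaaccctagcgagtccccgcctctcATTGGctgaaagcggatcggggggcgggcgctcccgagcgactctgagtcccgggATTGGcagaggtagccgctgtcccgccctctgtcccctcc
Abca1, chr4:53159846-53160145, minus strand: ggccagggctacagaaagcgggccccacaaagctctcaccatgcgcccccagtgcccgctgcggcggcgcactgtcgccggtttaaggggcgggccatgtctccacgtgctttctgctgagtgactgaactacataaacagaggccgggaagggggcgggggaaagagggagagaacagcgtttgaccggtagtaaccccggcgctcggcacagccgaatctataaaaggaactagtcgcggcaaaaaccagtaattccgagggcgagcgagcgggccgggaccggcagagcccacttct

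The box CCAAT, which the factor NF-Y binds next to SREBP at many sterol genes, was found on either strand in all 14 measured enzymes with a listed window and in 20 of the 22 genes, Scap and Abca1 being without it. Among all 27025 genes with a listed window outside chromosome 18, 41.1% held it. Genes that followed the enzymes little held it too. These were Ggps1 (r = 0.31 with the mean of the other enzymes), Npc1l1 (-0.31), Abcg5 (0.22) and Abcg8 (0.09). A link between the box and the shared movement was not tested. The GC box GGGCGG occurred in 12 of the 14 enzymes and 17 of the 22 genes, against 38.2% of all genes. The sterol response form TCACNCCAC, with any base at N, occurred in 1 of the 22 genes, Hmgcs1, beginning 137 bases before the start, against 1.44% of all genes. Natural elements vary around this form, and a match or its absence describes only these letters in these windows. Both strands were searched, and matches that overlap were all counted. Abcg5 and Abcg8, on chromosome 17, are transcribed in opposite directions. Of the 2 listed starts of Abcg8, one lies 110 bases from that of Abcg5, so that these windows share 209 bases, and the other lies within the Abcg5 gene.

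The groups differ by the drug, so the comparison asks whether these transcripts differ between rilpivirine and control livers. No cholesterol gene passed the adjusted threshold. In limma with Benjamini-Hochberg adjustment over 16635 genes, 0 of 26 passed an adjusted p of 0.05 (0% of all genes did), and the smallest adjusted p among them was 0.890. At an unadjusted p under 0.05 there was 1 of 26, Insig2, against 5.21% of all genes. With a separate variance for each group and no moderation, 0 of 26 passed either threshold. Of all genes, 0% then passed the adjusted threshold and 3.93% the unadjusted one. The groups overlapped in all 26, where 3.04% of all genes tested were without overlap. Of the 26, 15 had a higher mean with rilpivirine and 11 a lower one, with 43.1% of all genes higher. The median difference was 0.05 log2, beside -0.03 over all genes. For the 17 enzymes the median was -0.01, with 8 higher and 9 lower. Intervals were wide, and that of Fdps ran from -0.91 to 1.17 log2 (95%).

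**Figure D1:**
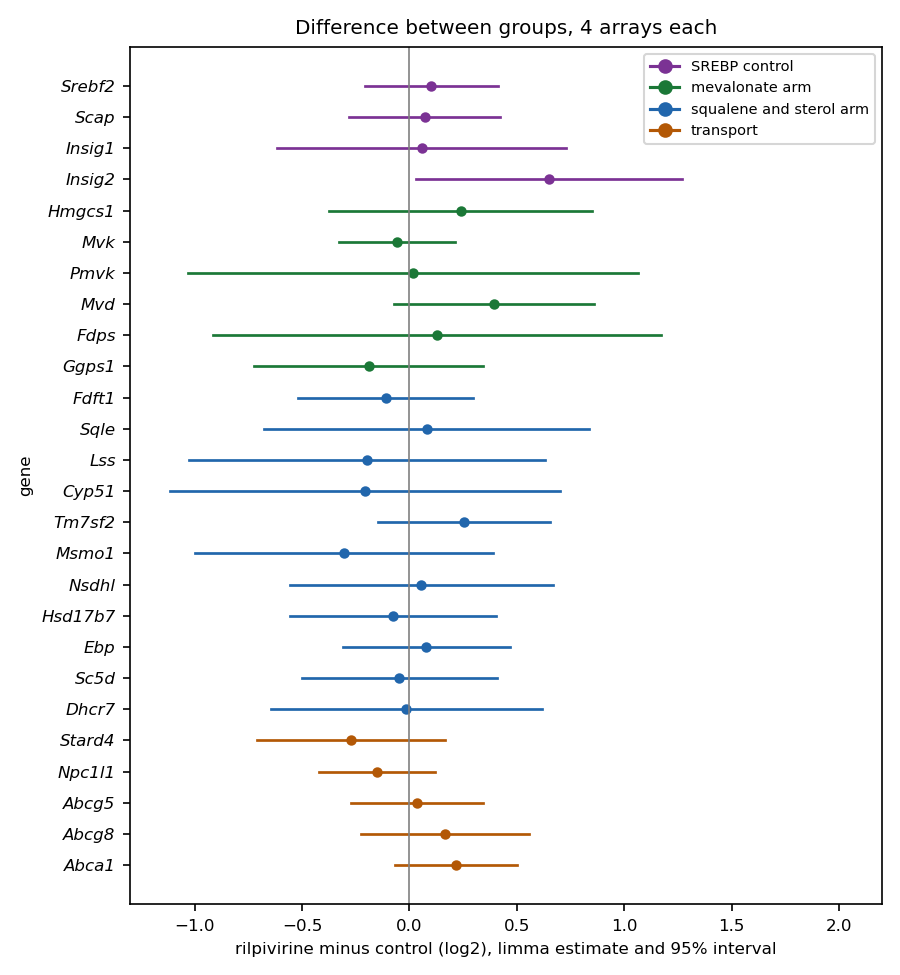
Difference between rilpivirine and control (log2, x axis) for each of the 26 genes (y axis), as the limma estimate (point) with its 95% confidence interval (line), coloured by role, 4 arrays per group. The interval of Insig2 (0.03 to 1.27) is the only one of the 26 that leaves out 0, before any adjustment over genes.

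The 4 control genes come first. Srebf2, which encodes SREBP-2 itself, measured 7.09, 6.76, 6.57 and 6.81 log2 in rilpivirine replicates 1 to 4 and 6.74, 6.81, 6.82 and 6.46 in control replicates 1 to 4. These values overlap throughout, and the difference was 0.10 ± 0.14 log2 (SE, n = 4 each). Scap, the escort, had a difference of 0.07 ± 0.16 (SE). A second, dim probe set of Scap, at a mean of 3.69 log2, had one of 0.16. Insig1, the retention protein that is itself a target of SREBP-2, measured 10.78, 9.11, 9.59 and 10.35 log2 with rilpivirine and 9.78, 10.18, 9.94 and 9.70 in controls. The rilpivirine values lie on both sides of all 4 controls, and the means, 9.96 ± 0.75 and 9.90 ± 0.21 (SD, n = 4 each), are close.

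Insig2, the retention protein whose liver transcript is known to be lowered by insulin, stood out from the rest of the group. Its values were 7.94, 7.58, 7.57 and 9.03 log2 with rilpivirine and 7.59, 7.19, 7.45 and 7.27 in controls. Control replicate 1 lies inside the rilpivirine range, and rilpivirine replicate 4 lies far above the other 7 arrays. The difference was 0.65 ± 0.28 log2 (SE), a 1.57-fold higher mean, past the unadjusted threshold but with an adjusted p of 0.890 in limma. Without rilpivirine replicate 4 the difference was 0.32 (adjusted p = 0.555). Over the alternatives tried, the difference stayed above 0 in all 20 settings, from 0.32 to 0.92, and the adjusted p ranged from 0.555 to 0.999.

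In the mevalonate arm, which leads from acetyl-CoA to farnesyl and geranylgeranyl diphosphate, 6 enzymes were measured. Hmgcs1, the synthase that makes HMG-CoA, measured 8.89, 7.70, 8.35 and 9.29 log2 with rilpivirine and 8.25, 8.29, 8.50 and 8.23 in controls. Its controls are nearly level, and rilpivirine replicates 1 and 4 lie above all of them while replicate 2 lies below. The difference was 0.24 ± 0.28 (SE); without rilpivirine replicate 2 it was 0.53 (adjusted p = 0.999 in limma), and without rilpivirine replicate 4 it was -0.005. Fdps, which makes farnesyl diphosphate, measured 8.51, 6.37, 6.56 and 8.29 log2 with rilpivirine, a 4.42-fold range, and 6.67, 7.44, 7.95 and 7.16 in controls, a 2.42-fold range. The phosphomevalonate kinase Pmvk ranged over 3.92-fold with rilpivirine, from 6.52 to 8.49 log2, and over 2.98-fold in controls, from 6.76 to 8.33. In both genes the rilpivirine arrays fall far apart, with replicates 1 and 4 high and 2 and 3 low, and the mean differences were 0.13 ± 0.47 and 0.02 ± 0.48 (SE). Mvd, the decarboxylase that yields isopentenyl diphosphate, was the enzyme with the largest difference, 0.39 ± 0.21 (SE), and its rilpivirine values of 6.33, 5.36, 5.32 and 5.64 log2 reached into the control range of 5.11 to 5.53. Without rilpivirine replicate 1 its difference was 0.17. Those of Lss, Msmo1, Cyp51, Pmvk, Fdft1, Fdps and Sqle, among others, were then larger in size and below 0. The median over the enzymes was then -0.21. The kinase Mvk had a difference of -0.06 ± 0.12 (SE). Ggps1, which draws farnesyl diphosphate off towards protein prenylation, had one of -0.19 ± 0.24 (SE).

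In the squalene and sterol arm, 4 of 11 enzymes had a higher mean with rilpivirine and 7 a lower one, with differences of -0.31 to 0.25 log2. Sqle, the epoxidase that catalyses a rate-limiting step, measured 6.32, 4.69, 4.95 and 5.81 log2 with rilpivirine and 4.86, 5.61, 5.87 and 5.10 in controls. Cyp51, the lanosterol demethylase, measured 6.83, 5.09, 5.91 and 7.26 with rilpivirine and 5.99, 6.37, 7.11 and 6.43 in controls. Lss, which closes the sterol rings, measured 6.32, 4.60, 4.48 and 5.85 with rilpivirine and 5.37, 5.41, 6.02 and 5.24 in controls. All 3 share a pattern: rilpivirine replicates 1 and 4 high, replicate 2 or 3 the lowest of the 8 arrays, and control replicate 3 the highest control. Their differences were 0.08 ± 0.34, -0.21 ± 0.41 and -0.20 ± 0.38 (SE). Msmo1, the C4 methylsterol oxidase, had the lowest difference of the arm, -0.31 ± 0.31 (SE), and Tm7sf2, a sterol reductase, the highest, 0.25 ± 0.18 (SE). Single arrays moved both: Msmo1 was at -0.03 without rilpivirine replicate 2 and -0.09 without control replicate 3, and Tm7sf2 at 0.11 without rilpivirine replicate 1. Fdft1, which commits farnesyl diphosphate to squalene, had a difference of -0.11 ± 0.18 (SE). The demethylation partners Nsdhl and Hsd17b7 had 0.06 ± 0.28 and -0.08 ± 0.22, and the last enzymes of the route, Ebp, Sc5d and Dhcr7, had 0.08 ± 0.18, -0.05 ± 0.21 and -0.01 ± 0.29 (SE each).

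**Figure D2:**
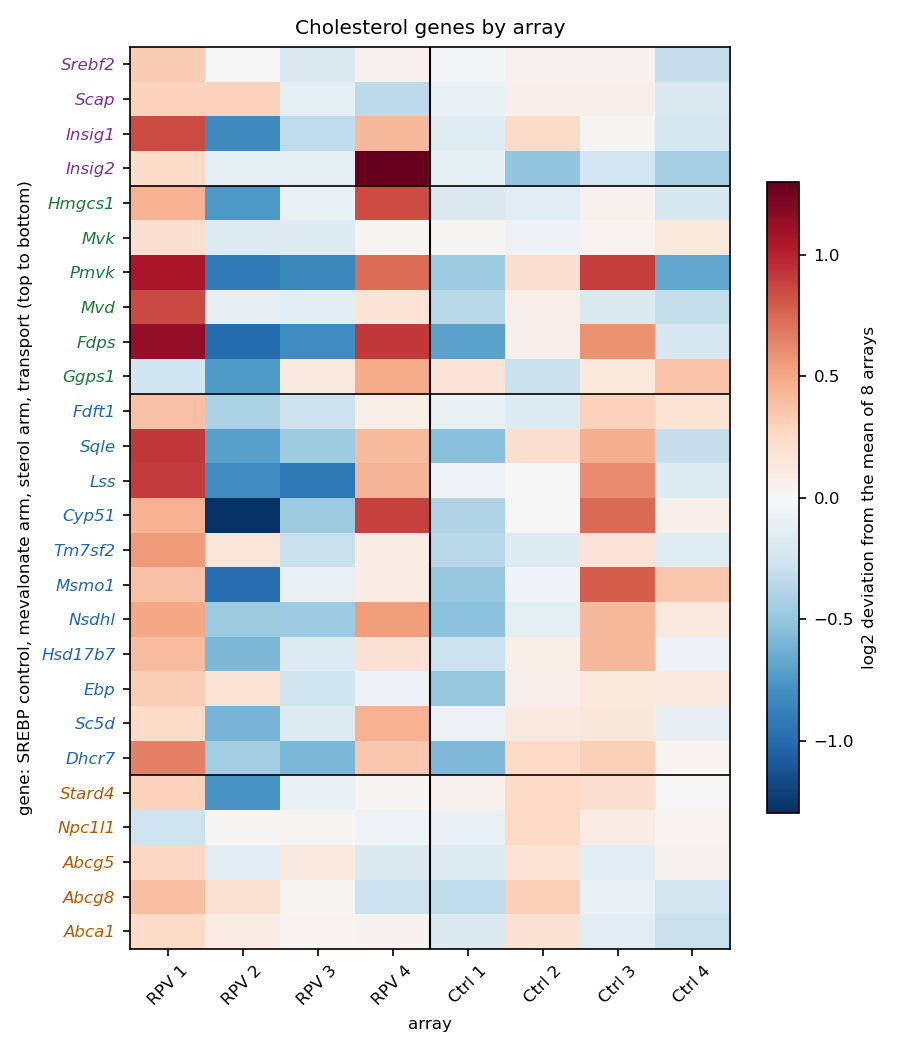
Deviation of each gene (rows, grouped by role) from its mean over the 8 arrays (columns; RPV, rilpivirine; Ctrl, control), in log2 units, red above and blue below. Most enzyme rows are red in rilpivirine replicates 1 and 4 and control replicate 3 and blue in rilpivirine replicates 2 and 3 and control replicate 1; the efflux genes at the bottom vary little.

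The enzymes were spread widely within groups. The mean deviation of the 17 enzymes from their 8-array mean was 0.54, -0.57, -0.36 and 0.39 log2 in rilpivirine replicates 1 to 4 and -0.32, 0.005, 0.36 and -0.05 in control replicates 1 to 4. The rilpivirine arrays thus spanned 2.16-fold and the controls 1.59-fold, around almost the same centre. The SD with rilpivirine exceeded that of controls in 16 of 17 enzymes, Ebp being the exception, and in 69.8% of all genes tested. The ratio was at least 2 in 7 of 17, against 28.6% of all genes, and its median was 1.66, against 1.41 over all genes. It was widest for Hmgcs1, at 0.69 against 0.12 log2 (5.65 times), followed among the enzymes by Sc5d, at 0.47 against 0.13 log2. Without rilpivirine replicate 2 the count was 14 of 17, against 57.9% of all genes. Without rilpivirine replicates 1 and 2 together it was 13 of 17, against 42.1%. The lowest of the 8 arrays was rilpivirine replicate 2 in 13 of the 26 genes, against 30.2% of all genes. A larger SD in the rilpivirine group was thus common on these arrays, and no test of the difference in spread was made.

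**Figure D3:**
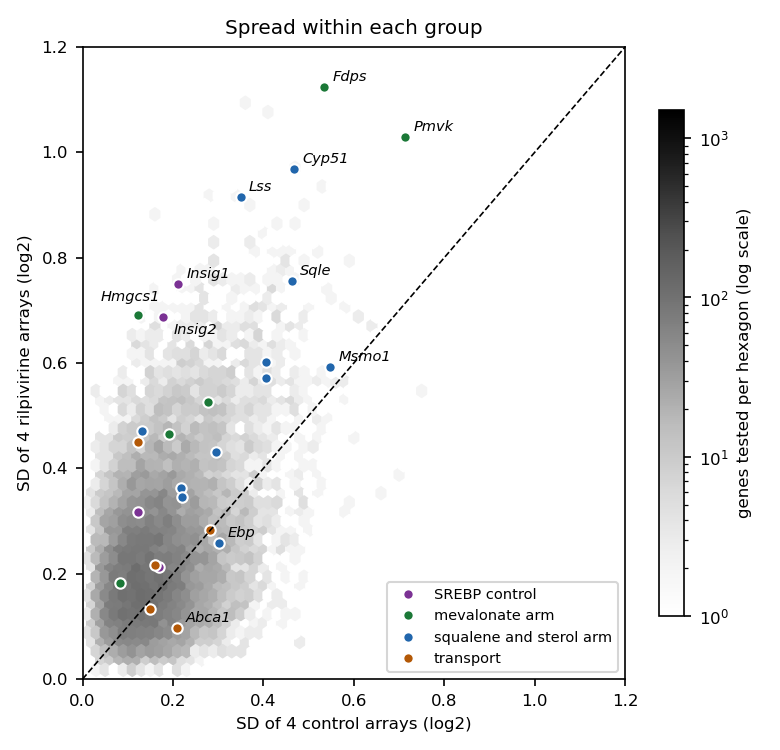
SD of the 4 rilpivirine arrays (y axis, log2) against the SD of the 4 control arrays (x axis, log2) for the cholesterol genes (coloured points) and all 16635 genes tested (grey hexagons, log colour scale; 22 genes beyond 1.2 on an axis are not drawn). The dashed line marks equal SD; Fdps, Pmvk, Cyp51 and Lss have SDs of 0.91 to 1.12 with rilpivirine, and Abca1, Ebp and Npc1l1 lie below the line.

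The enzymes rose and fell together from array to array. With each group's mean subtracted, the median of Pearson's r over the 136 pairs of enzymes was 0.76, beside 0.0147 over all pairs of the 16635 genes. It reached at least 0.8 in 39.0% of enzyme pairs and 3.56% of all pairs. Both were higher over pairs of the 15 fatty acid synthesis genes described below, with a median of 0.87 and 62.9% of pairs. These are descriptions over 8 arrays normalized together, and pairs share genes. Within the sterol arm the median was 0.82 and no pair was below 0; within the mevalonate arm it was 0.69. The closest pair was Hmgcs1 and Sc5d (r = 0.98), followed by Fdps and Sqle (r = 0.97). The median was 0.76 without rilpivirine replicate 2, 0.80 after centring of each array on its median, and 0.70 when the arrays were quantile-normalized once more. Leaving out rilpivirine replicates 1 and 2 gave 0.76. Arrays with a higher overall median had lower enzyme levels (r = -0.72 and rho = -0.69 over 8 arrays, group means subtracted); the part of this in the enzymes' levels was not tested, apart from the value after centring.

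Set against the mean of the other enzymes, 8 of 17 enzymes had r of at least 0.9, as did 126 of the 16609 tested genes outside the 26 (0.759%) when set against the mean of all 17. Fdps followed the others most closely (r = 0.992, rho = 1), then Sqle (0.962), Hsd17b7 (0.958) and Nsdhl (0.947). Leaving out the 2 arrays farthest from the median of the enzyme mean gave 0.988 for Fdps and 0.927 for Sqle. It gave 0.67 for Msmo1 (0.83 over 8 arrays), 0.52 for Mvd (0.74) and 0.47 for Mvk (0.76). The value was higher than over 8 arrays for Cyp51, Tm7sf2, Nsdhl and Ebp, and lower for the other enzymes. Ggps1 followed least (r = 0.31, rho = 0.19, and -0.20 without rilpivirine replicate 2), and Ebp had r = 0.42, which was 0.76 without rilpivirine replicate 2. Among the control genes Insig1 moved with the enzymes (r = 0.89, rho = 0.95, and r = 0.75 without the 2 farthest arrays). Srebf2 did so more loosely (r = 0.61, rho = 0.67) and Insig2 likewise (r = 0.56, rho = 0.62). Without the 2 farthest arrays these had r of 0.50 and 0.65. Scap did not (r = -0.06, and 0.39 without rilpivirine replicate 2). Scap and Ggps1 ran opposite to each other (r = -0.90).

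**Figure D4:**
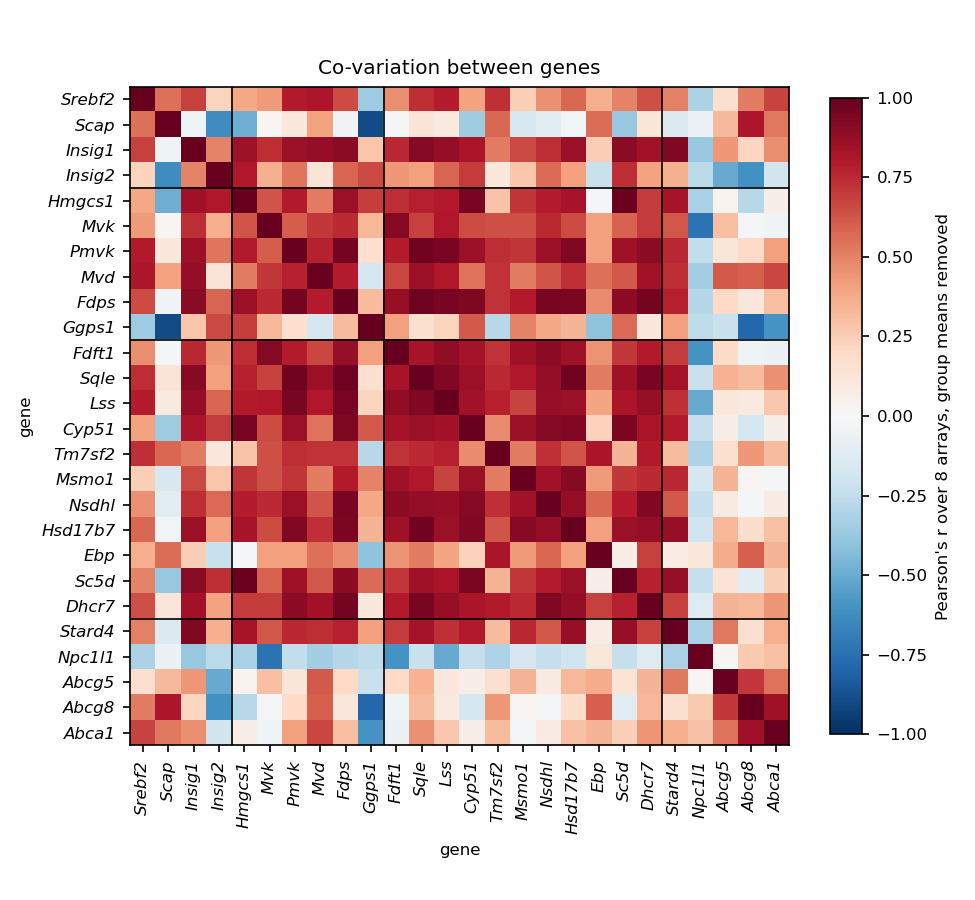
Pearson's r between each pair of the 26 genes over 8 arrays after subtraction of group means (red positive, blue negative), with black lines between control genes, mevalonate arm, sterol arm and transport. The enzyme block is red apart from the rows of Ggps1 and Ebp, Insig1 and Stard4 join it, and Abcg5, Abcg8 and Abca1 form a separate red corner.

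Transport genes fell into separate patterns. Stard4, a soluble carrier of cholesterol and a target of SREBP-2, measured 6.99, 5.93, 6.60 and 6.70 log2 with rilpivirine and 6.75, 6.95, 6.91 and 6.69 in controls. Rilpivirine replicate 2 is far below the rest. Stard4 tracked the enzymes (r = 0.81, and 0.55 without the 2 arrays farthest from the enzymes' median) and Insig1 (r = 0.92). Its difference was -0.27 ± 0.20 log2 (SE), and -0.06 without rilpivirine replicate 2. Abcg5 and Abcg8 encode the partner subunits of the pump that secretes sterol into bile. Abcg5 measured 8.61, 8.21, 8.47 and 8.16 log2 with rilpivirine and 8.18, 8.52, 8.21 and 8.39 in controls. Abcg8 measured 8.71, 8.53, 8.35 and 8.05 with rilpivirine and 8.01, 8.64, 8.24 and 8.09 in controls. The groups overlap in both genes, with differences of 0.04 ± 0.14 and 0.17 ± 0.18 (SE), and the genes correlated at r = 0.70 with each other, next to r = 0.22 and 0.09 with the enzyme mean.

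Abca1, which loads cholesterol onto nascent high-density lipoprotein and is a target of the sterol-sensing LXR receptors, measured 8.95, 8.80, 8.74 and 8.75 log2 with rilpivirine and 8.52, 8.89, 8.55 and 8.41 in controls. Control replicate 2 is the array inside the rilpivirine range, and the difference was 0.22 ± 0.13 log2 (SE, adjusted p = 0.890 in limma). Without control replicate 2 it was 0.32 (adjusted p = 0.755). Abca1 went with Abcg8 (r = 0.84) and not with the enzymes (r = 0.24), and its SD was smaller with rilpivirine, at 0.10 against 0.21 log2. Npc1l1, the sterol importer of the gut that mouse liver hardly expresses, was dim at 3.33 to 3.61 log2 with rilpivirine and 3.50 to 3.86 in controls, and its difference was -0.15 ± 0.12 (SE). Of 7 enterocyte markers, Sis at 2.13 to 2.61 log2, Vil1 at 3.04 to 3.74, Lct, Alpi and Cdx2 stayed under 4.25 on all arrays. Fabp2 at 7.06 to 9.17 and Apoa4 at 11.70 to 12.48, which liver can also express, were higher.

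Other genes of the pathway are given by lists of function. Of 10 tested genes of SREBP processing and sterol sensing, 0 passed the adjusted threshold and 0 an unadjusted p under 0.05 (5.21% of all genes), with 3 higher and 7 lower means (43.1% of all genes higher). The 4 with the smallest p were Erlin1, with a difference of -0.32 ± 0.20 log2 (SE), Faf2 with 0.15 ± 0.11, Rnf139 with -0.24 ± 0.18 and Tmem97 with -0.25 ± 0.20. Of 19 tested genes of sterol handling, 0 passed after adjustment, and at an unadjusted p under 0.05 1 was higher and 1 lower, against 2% and 3.21% of all genes. The higher one was Hsd3b7, an enzyme of bile acid synthesis, at 0.59 ± 0.13 log2 (SE, adjusted p = 0.769 in limma). Its groups did not overlap, as in 3.04% of all genes. The lower one was the sterol carrier Stard5, at -0.34 ± 0.15 (SE, adjusted p = 0.890 in limma). Cyp7a1, the rate-limiting enzyme of bile acid synthesis, had -0.45 ± 0.26, and Npc2, which hands cholesterol out of lysosomes, had -0.27 ± 0.16 (SE).

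Fatty acid synthesis, which answers mainly to the sister factor encoded by Srebf1, varied in the same way. The mean of its 15 listed genes deviated by 0.66, -0.43, -0.58 and 0.58 log2 in rilpivirine replicates 1 to 4 and by -0.19, 0.17, 0.04 and -0.25 in control replicates 1 to 4. Across the 8 arrays, with group means subtracted, it correlated with the enzyme mean at r = 0.90 (rho = 0.93), and at r = 0.82 without the 2 arrays farthest from the enzymes' median. Fasn, the fatty acid synthase, measured 11.23, 9.57, 8.53 and 11.06 log2 with rilpivirine, a 6.48-fold range, and 9.38, 10.48, 9.71 and 9.03 in controls, a 2.73-fold range. Control replicate 3, the highest control for cholesterol enzymes, was near the middle for fatty acid genes. None of the 15 passed either threshold, and 11 had a higher mean with rilpivirine (43.1% of all genes did). The 4 with the smallest p were the lipogenic regulator Thrsp, with a difference of -0.90 ± 0.44 log2 (SE), the acyltransferase Gpam with 0.40 ± 0.31, the carbohydrate sensor Mlxipl with 0.19 ± 0.16 and the desaturase Fads2 with -0.19 ± 0.16. The SD was larger with rilpivirine in 14 of 15, against the same 69.8% of all genes. Srebf1 itself went with the cholesterol enzymes at r = 0.57.

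**Figure D5:**
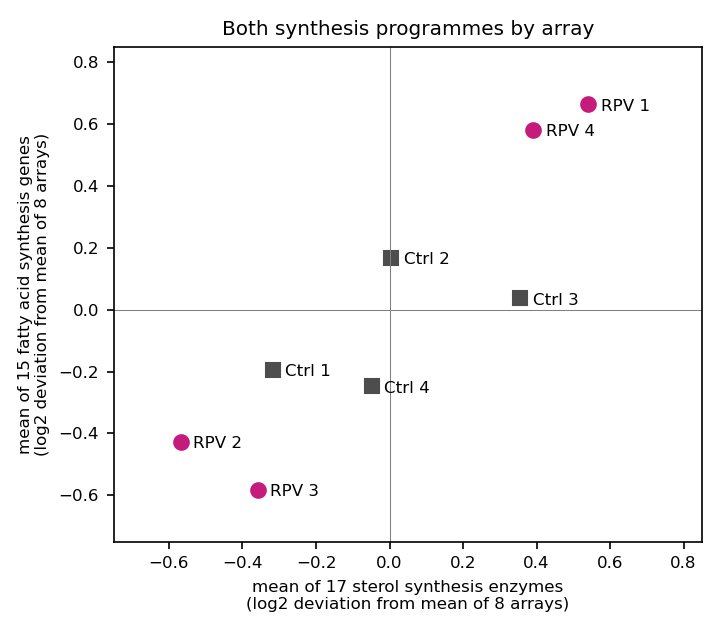
Mean log2 deviation of 15 fatty acid synthesis genes (y axis) against that of 17 sterol synthesis enzymes (x axis), each from the 8-array mean, for rilpivirine (RPV, circles) and control (Ctrl, squares) arrays. Rilpivirine replicates 1 and 4 lie at the upper right (0.54 and 0.39 on the x axis) and replicates 2 and 3 at the lower left (-0.57 and -0.36), with the 4 controls between them on the y axis.

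The 10 genes outside the 26 whose pattern was most like that of the enzymes, by r over 8 arrays with group means subtracted, were Dhrs1, Erg28, Acss2, Cenpb, Cnot9, Pex19, Armc10, Edem1, Mdp1 and Sf3b5, with r of 0.966 to 0.983. Erg28 encodes a scaffold of the sterol demethylation complex, and Acss2 makes acetyl-CoA from acetate. Acss2 measured 9.22, 7.35, 7.23 and 9.11 log2 with rilpivirine and 7.24, 7.80, 8.22 and 7.58 in controls, which repeats the order of the enzymes closely (rho = 0.98). Their differences between groups ran from -0.26 ± 0.20 for Erg28 to 0.52 ± 0.44 for Acss2 (SE), and none of the 10 passed the unadjusted threshold.

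Measures of other cells and of the clock were set beside the enzymes. The list means of hepatocyte, Kupffer cell, sinusoidal and cholangiocyte markers had r of 0.28, 0.10, -0.01 and 0.05, and enterocyte markers -0.39, with the enzyme mean over 8 arrays, group means subtracted, and the level of the small nucleolar RNAs -0.05. The sinusoidal markers were the cell type list that differed most between groups. All 5 had a higher mean with rilpivirine (median 0.40 log2), against 43.1% of all genes. At an unadjusted p under 0.05, 3 were higher, against 2% of all genes, and 0 passed after adjustment in limma. Adipocyte markers had r = 0.42 with the enzymes, and 0.55 without the 2 arrays farthest from the enzymes' median. The hepatocyte, Kupffer cell, sinusoidal, cholangiocyte and enterocyte lists then had -0.01, -0.12, -0.14, 0.09 and -0.32. The mean of the adipocyte list spanned -0.45 to 1.02 log2 in the rilpivirine arrays and -0.14 to 0.26 in the controls. Rilpivirine replicate 4 held the highest values of Cidec (7.85 log2) and Fabp4 (6.78), while Adipoq, the defining marker, stayed at 2.34 to 2.85 on all arrays. The mean of Adipoq, 2.66, was under the filter value, so Adipoq is not part of the list mean or its r. The part of adipocyte markers in the high enzyme levels of rilpivirine replicate 4 was not tested. Of 12 clock genes, 3 were higher and 8 lower with rilpivirine at an unadjusted p under 0.05 (against 2% higher and 3.21% lower of all genes). After adjustment in limma 0 passed. The mean of the 12 had r = 0.33 with the enzymes, and -0.27 without the 2 farthest arrays. That mean pools genes that were higher with genes that were lower. Single clock genes had r from -0.29 (Nr1d1) to 0.72 (Cry2) with the enzymes.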

How the data were processed

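The values deposited by the authors are log2 levels of 41345 probe sets on 8 one-colour Affymetrix arrays. The submitters' processing notes name RMA (background correction, quantile normalization and summarisation) and limma; their versions were not given in the sources used here. 300 ng of total RNA were labelled per sample, per the labels' protocols. RMA removes differences in total signal, so a change in total mRNA could not be seen. Through the platform annotation 23521 probe sets had 1 symbol, 1814 several and 16010 none, giving 22180 genes. The 16635 genes whose mean reached the 25th percentile (2.72 log2) were tested two-sided in R 4.3.3 with limma 3.58.1 (lmFit, eBayes), with Benjamini-Hochberg adjustment over all of them and a threshold of 0.05. The number of arrays limits the precision.

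Correlations used deviations from group means. The per-array mean of a list was taken over members that passed the filter. The fit was tested on simulated data. Members and lists were chosen with earlier results of these data known. All 26 members are described by role; values per sample are given for a named set, for members at an unadjusted p under 0.05 and, chosen after their values were seen, for Fdps, Mvd and Lss, and outside the members the 4 genes of smallest p in each pathway list and the 10 genes most like the enzymes are named. Fasn, Cyp7b1, Cyp8b1 and Cyp27a1 were added after their values were seen; clock genes are given by counts. Alternatives were other moderation, array weights, centring, a further quantile normalization, other filters, the mean of a gene's probe sets, the replicate number as a block, samples left out, a small nucleolar RNA covariate and Welch statistics. For the count of larger SDs, alternatives were chosen after seeing the data. Python 3.11.15 and matplotlib 3.10.9 drew the plots. Sequences are from RefSeq.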

Additional observations from a re-analysis of the deposited data

Results flagged for a closer look

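Ebp, the sterol isomerase, measured 9.13 log2 in control replicate 1, far from the other 3 controls at 9.68 to 9.76. It was the only one of 54 sets of 4 values examined (26 genes and the enzyme mean in each group) in which a single array lay this far from the rest. Chance gives about 1 in 20, and 1 of 54 sets does not exceed that rate. The sets share arrays and are not independent.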

How the results depend on the processing

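No cholesterol gene passed the adjusted threshold in any of the 20 settings tried, leaving out each sample in turn included. The count at an unadjusted p under 0.05, 1 in the main setting (5.21% of all genes), was 2 with array weights (5.67%). It was 0 after centring of the arrays (4.88%) or with Welch statistics (3.93%). With single samples left out it ran from 0 to 3, while the share of all genes ran from 3.47% to 9.16%. The 3 arose on leaving out rilpivirine replicate 2 (4.21% of all genes) or 3 (7.29%). The 0 arose on leaving out rilpivirine replicate 1 (4.98%) or 4 (9.16%), or control replicate 3 (3.53%) or 4 (3.68%). The cause was not tested. With the replicate block the count was 1, at 6.44% of all genes. Same-numbered samples deviated together with r of -0.25, 0.46, -0.09 and 0.07 over genes, so the numbers were not taken to pair them. The median difference of the enzymes lay between -0.21 (without rilpivirine replicate 1) and 0.18 (without rilpivirine replicate 3), on both sides of 0, and that of the transport genes between -0.05 and 0.11. The median pair correlation of the enzymes ran from 0.68 to 0.86, and the count of enzymes with a larger SD with rilpivirine from 13 to 17 of 17. With 4 arrays per group, the intervals given show how imprecise each difference is.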

Other observations

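The bile acid enzymes, which consume cholesterol, differed among themselves in how they ran beside the enzymes that make it. Over 8 arrays, with group means subtracted, Cyp7a1 had r = -0.62 (rho = -0.76) with the mean of the 17 sterol synthesis enzymes, Cyp7b1 -0.49, Cyp8b1 -0.31, Hsd3b7 -0.17 and Cyp27a1 0.48. Cyp7a1 measured 9.89, 10.23, 11.09 and 9.59 log2 in rilpivirine replicates 1 to 4 and 10.62, 10.55, 10.63 and 10.82 in control replicates 1 to 4. It was lowest in rilpivirine replicates 1 and 4, where the sterol enzymes were high, and its SD was 0.65 log2 with rilpivirine and 0.12 in controls.

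Thrsp, which answers to insulin and carbohydrate, measured 10.09, 7.71, 7.83 and 9.15 log2 with rilpivirine, a 5.22-fold range, and 9.31 to 9.91 in controls. Within the same list Mlxipl kept to 7.96 to 8.33 with rilpivirine and 7.76 to 8.37 in controls.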
